A study of Homo sapiens with 16 samples.

Results

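T2 is the labels' name for 1 of 6 cloned transcripts of LINC01016, a human gene that makes a long non-coding RNA in the testis. Its expression plasmid was put into HEK293, a widely used human cell line first grown from embryonic kidney. The 2 T2 libraries were chosen by their label and set against the 12 other transfected libraries, out of 16 libraries in the series. The 12 comprised 2 libraries each of the transcripts T1, CU1, CU2, CU1ENC and CU1ENU and of the empty vector. All 14 received 5 micrograms of pcDNA3.0 plasmid by lipofection and were taken 48 hours later, so plasmid and lipid were common to both sides. The other 2 libraries of the series were parental HEK293 cells, which the labels do not describe as transfected. The question was which genes distinguish cells carrying T2 from cells carrying another insert or none. The labels do not describe how T2 differs in sequence from the other transcripts, nor what share of cells took up plasmid. RNA was counted by gene from strand-marked paired-end libraries, and levels are given as CPM, the count scaled to the library's size. CPM is not corrected for gene length, so levels are compared between libraries and not between genes.

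Long non-coding RNAs carry no long reading frame, and many act in the nucleus on chromatin or splicing or in the cytoplasm by binding other RNAs and proteins. Delivery of a plasmid can itself change a cell: foreign nucleic acid can switch on interferon-stimulated genes, and stress can switch on the immediate-early genes, which respond within minutes without new protein synthesis. SREBP2, a membrane-bound transcription factor released when sterols are low, drives the enzymes of cholesterol synthesis.

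Library totals were 16254700 and 15468756 counts in T2 replicates 1 and 2, and 15040770 to 17255935 counts in the other transfected libraries. The number of genes with at least 1 count was lowest in T2 in both replicates, with 26666 in T2 replicate 1 against 27067 to 27461 in the 6 others, and 25774 in T2 replicate 2 against 25897 to 26293. Genes of the mitochondrial chromosome, its ribosomal and transfer RNAs included, took 1.62% and 1.32% of counts in the T2 libraries, also the lowest, against 1.67% to 2.28% in the other replicate 1 libraries and 1.34% to 1.75% in the other replicate 2 libraries. Markers of neurons, known in HEK293 cells, were present in T2, where the 16 tested of 19 summed to 635 and 639 CPM. That was above the 589 to 628 CPM of the other replicate 1 libraries and the 573 to 622 CPM of the other replicate 2 libraries. Of the 16, 10 were higher and 6 lower in the fitted difference. The list median of log2 differences from the 6 others was 0.11 in replicate 1, above all of them. In replicate 2 it was 0.03, inside their -0.05 to 0.07. UCHL1, SNAP25 and MAP2 were the members above all 6 others in both replicates. They are 18.8% of the 16, beside 3.60% of all genes and 4.98% of genes with at least 10 CPM. In bulk RNA more cells and more RNA per cell cannot be told apart. The 5 tested kidney tubule markers of 11 summed to 20.4 and 16.3 CPM in T2, inside the range of the others. Of 17 tested kidney development factors, 5 were higher and 12 lower. Their list median was -0.15 in replicate 1, below the -0.08 to 0.08 of the others. In replicate 2 it was 0.02, inside -0.05 to 0.19. Fibroblast markers had 4 of 11 higher, with medians of -0.14 and 0.04. Keratinocyte and epithelial markers had 3 of 6 higher, with medians of 0.02 and 0.05. The 4 tested leukocyte and erythroid markers of 18 summed to 4.27 and 4.44 CPM in T2, against 5.13 to 6.48 CPM and 4.91 to 7.33 CPM in the others. The part of these differences in the results below was not tested.

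The targeted gene, LINC01016 (ENSG00000249346), lies on the minus strand of chromosome 6 at 33867506 to 33896914 in GRCh38.p13. It had 84279 counts in T2 replicate 1 and 73533 in T2 replicate 2. The empty vector libraries held 1 count in replicate 1 and 0 in replicate 2. Scaled to library totals, T2 stood at 5185 and 4754 CPM. The 5 other transcripts ran from 3079 to 12326 CPM in replicate 1 and from 2600 to 8417 CPM in replicate 2. T2 thus lay inside the range of the other inserts in both replicates, and between CU2 (2839 ± 338 CPM) and T1 (6425 ± 269 CPM; SD, n = 2 each) in the order of group means. A gene count cannot tell the transcripts of this gene apart, and the rest mixes 5 inserts with the vector, so no fold change is given for it. The overlapping antisense gene ENSG00000233183 had 5763 and 4732 counts in T2, against 2 and 0 counts in the empty vector, and reads of the 2 genes are kept apart only as far as strand marking held.

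No gene passed the adjusted threshold between T2 and the 12 other libraries. edgeR's quasi-likelihood test with the replicate number as a block called 0 of 19103 genes higher and 0 lower at a Benjamini-Hochberg adjusted p under 0.05 (0% called in each direction), and the lowest adjusted p was 0.125. An unadjusted p under 0.05 was reached by 1965 genes, 978 higher in T2 (5.12% of those tested) and 987 lower (5.17%). Evenly spread p-values would give 955 genes over both directions together. Genes are not independent, so the 955 is a point of reference and not a test. limma-voom with the same block also called 0 genes, with 1937 below an unadjusted p of 0.05. DESeq2 with the block called 13 higher and 16 lower at adjusted p between 0.0314 and 0.0498, among them FDPS, FDFT1, TYMS, PRDX6, CAPNS1 and RPS3A higher and SPTAN1, MAFK, JUN and MACF1 lower. The edgeR fit called 34 higher and 47 lower when genes of low counts were not filtered out first.

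T2 had more genes below an unadjusted p of 0.05 than any of the 6 other transfected groups given the same treatment. Set against its own 12 remaining libraries, the empty vector had 854 such genes, T1 808, CU1 741, CU2 645, CU1ENC 528 and CU1ENU 578. Each of these lay below the 955 that evenly spread p-values would give. Without the block the count was 830 in T2 and ranged from 273 to 395 in the other groups. These 7 comparisons use the same 14 libraries, and in 6 of them the T2 libraries are among the rest. The calls made in the other groups at an adjusted p under 0.05 were LINC01016, lower in the empty vector, and BCYRN1, higher in CU1ENC.

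**Figure D1:**
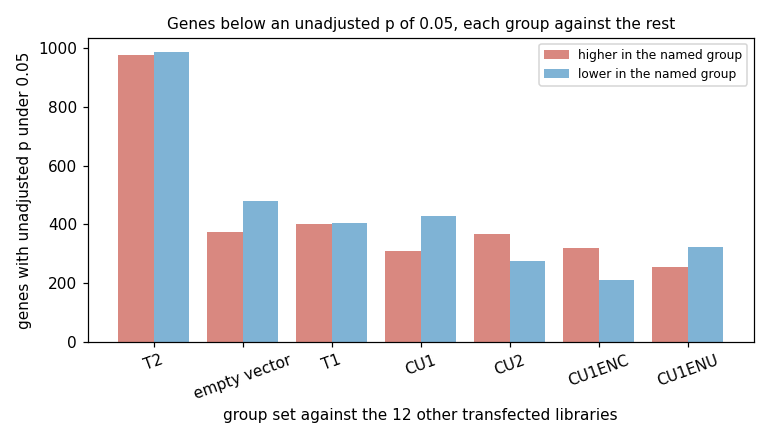
Number of genes (vertical axis) with an unadjusted p under 0.05 when each of the 7 transfected groups (horizontal axis) was set against the 12 other transfected libraries with the replicate block, split into genes higher and lower in the named group. T2 had 978 higher and 987 lower, and the 6 other groups had at most 402 higher and 480 lower.

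A second count asked only for order, without a model. T2 lay above all 6 other libraries of its replicate number in both replicates for 688 genes (3.60% of 19103) and below all 6 in both for 717 genes (3.75%). The 6 other groups had 302 to 364 genes above and 217 to 421 below by the same count. Among genes with a mean of at least 10 CPM, 4.98% were above and 4.53% below in T2. Effects were small: the median absolute log2 fold change of genes with an unadjusted p under 0.05 and at least 10 CPM was 0.144, and the largest was 0.647, in FOSB. The 95% interval of the fold change lay within 1.5-fold either way for 98.8% of the 10787 genes with at least 10 CPM, and for 68.3% of all genes tested.

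Genes were picked here only if T2 lay above all 6 others of its replicate number in both replicates. Their separation is therefore fixed by the choice and is not a result. Of such genes, those of lowest p on the higher side were TMEM160, CAPNS1, MLLT11, COX7A2L and PRDX6, none of which passed. CAPNS1, the small regulatory subunit of the calpain proteases (ENSG00000126247, chromosome 19, 36139953 to 36150353), had 187 CPM in T2 replicate 1, against 150, 160 and 170 CPM as lowest, median and highest of the 6 others. In replicate 2 it had 209 CPM in T2, against 172, 186 and 196 CPM. The log2 fold change was 0.20 ± 0.04 (SE; edgeR adjusted p = 0.131). PRDX6, a peroxiredoxin that reduces peroxides (ENSG00000117592, chromosome 1, 173477330 to 173488815), had 241 CPM in T2 replicate 1 against 189, 202 and 212 CPM. Its replicate 2 value was 226 CPM in T2 against 195, 210 and 219 CPM. The log2 fold change of PRDX6 was 0.19 ± 0.04 (edgeR adjusted p = 0.131). TMEM160, a small membrane protein, had 63.7 and 63.4 CPM in T2, against 45.1 to 57.9 CPM and 50.9 to 55.6 CPM in the others. COX7A2L, which assembles respiratory chain complexes into supercomplexes, had 81.5 and 82.3 CPM in T2, against 69.2 to 72.2 CPM and 68.7 to 77.0 CPM in the others. MLLT11, first known as a fusion partner in leukaemia, had 75.2 and 69.5 CPM in T2, against 61.0 to 68.1 CPM and 53.4 to 61.7 CPM. The fitted differences of TMEM160, COX7A2L and MLLT11 were 0.27, 0.20 and 0.24 on the log2 scale.

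On the lower side, genes were likewise picked only if T2 lay below all 6 others in both replicates. Of such genes, SAMD4A, CRELD2, MTND2P28, ASH1L and SPTAN1 had the lowest p, again without passing. SAMD4A, a Smaug-family protein that binds hairpins in messenger RNA (ENSG00000020577, chromosome 14, 54566117 to 54793315), had 36.7 CPM in T2 replicate 1, against 40.1, 46.4 and 47.6 CPM in the 6 others. T2 replicate 2 had 46.9 CPM, against 54.1, 58.7 and 62.1 CPM. The log2 fold change of SAMD4A was -0.32 ± 0.06 (edgeR adjusted p = 0.125). SPTAN1, the non-erythroid alpha spectrin of the membrane skeleton (ENSG00000197694, chromosome 9, 128552558 to 128633662), had 279 CPM in T2 replicate 1, against 304, 323 and 359 CPM. Its replicate 2 level was 314 CPM in T2, against 346, 369 and 397 CPM. That gave -0.23 ± 0.05 on the log2 scale (edgeR adjusted p = 0.125). CRELD2, an endoplasmic reticulum protein of the unfolded protein response, had 69.6 and 72.5 CPM in T2, against 75.7 to 85.9 CPM and 84.6 to 97.4 CPM in the others. ASH1L, a histone H3 methyltransferase, had 61.1 and 56.5 CPM in T2, against 70.8 to 79.1 CPM and 62.1 to 68.4 CPM in the others. The fitted differences were -0.25 for both. MTND2P28, a nuclear copy of the mitochondrial gene MT-ND2 on chromosome 1, had 25.6 and 19.3 CPM in T2, against 31.8 to 38.7 CPM and 21.3 to 30.1 CPM. Its count is uncertain because reads of MT-ND2 can be assigned to it, and MT-ND2 itself was at 616 and 508 CPM in T2, against 655 to 862 CPM and 527 to 760 CPM.

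**Figure D2:**
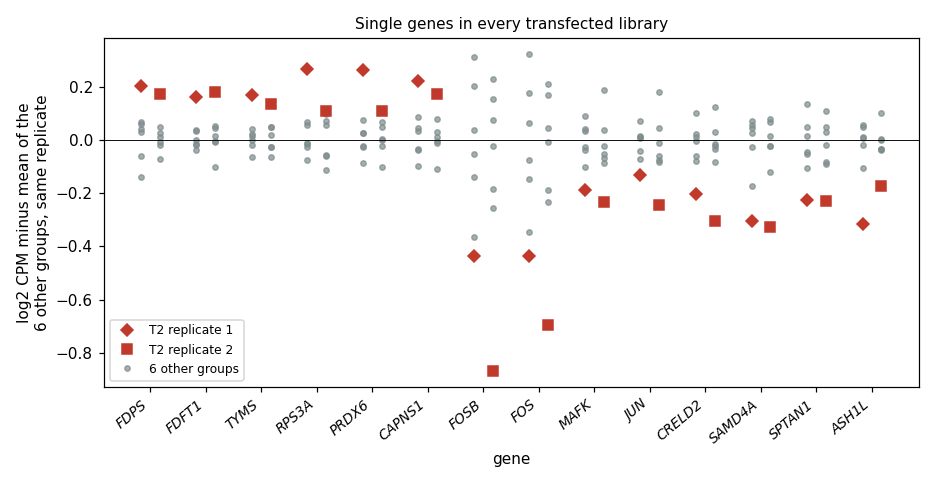
Level of 14 genes in every transfected library, as log2 CPM minus the mean of the 6 other groups of the same replicate number (vertical axis). Red diamonds are T2 replicate 1, red squares T2 replicate 2 and grey points the 6 other groups. For each gene both T2 points lie outside the 6 grey points of their replicate. CAPNS1, PRDX6, CRELD2, SAMD4A, SPTAN1 and ASH1L were chosen by that trait and the others drawn share it, so the figure is no test of it.

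Genes of cholesterol synthesis and other SREBP2 targets were higher in T2 in both replicates. Of 25 measured members, 0 passed, 21 had a positive fold change, and the median log2 fold change was 0.10, against 9190 positive of 19103 and a median of -0.0061 over all genes tested. The median was 0.14 in replicate 1 and 0.09 in replicate 2. Summed over the list, T2 had 3205 CPM in replicate 1, against 2929 to 3068 CPM in the others, and 2990 CPM in replicate 2, against 2683 to 2889 CPM. T2 was therefore the highest library of both replicates. The members above all 6 others in both replicates numbered 7 of 25 (28.0%), beside 3.60% of all genes and 4.98% of genes with at least 10 CPM. Among them were FDPS, FDFT1, STARD4, IDI1, ACAT2 and INSIG1, and 0 members were below.

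FDPS, which makes farnesyl diphosphate (ENSG00000160752, chromosome 1, 155308748 to 155320666, plus strand), had 166 CPM in T2 replicate 1, against 131, 148 and 151 CPM in the 6 others. In replicate 2 it had 151 CPM in T2, against 128, 134 and 139 CPM. The log2 fold change was 0.19 ± 0.04 (edgeR adjusted p = 0.134), with no overlap inside a replicate. FDFT1, the squalene synthase that commits farnesyl diphosphate to sterols, had 144 CPM in T2 replicate 1, against 126, 128 and 132 CPM. Its replicate 2 value was 139 CPM in T2, against 114, 123 and 127 CPM. Its difference was 0.17 ± 0.04 (edgeR adjusted p = 0.134). IDI1, which isomerises isopentenyl diphosphate, had 194 and 170 CPM in T2, against 157 to 180 CPM and 147 to 164 CPM in the others. STARD4, a carrier of cholesterol between membranes, had 103 and 90.0 CPM in T2, against 85.3 to 99.7 CPM and 65.4 to 79.9 CPM. INSIG1, which holds SREBP2 in the endoplasmic reticulum and is itself its target, had 155 and 122 CPM in T2, against 130 to 147 CPM and 82.8 to 108 CPM, a log2 difference of 0.24 ± 0.09 (edgeR adjusted p = 0.372). Not every step of the pathway stood out. SQLE, squalene epoxidase, differed by 0.03 ± 0.04, and SREBF2, the gene of SREBP2 itself, by -0.03 ± 0.04.

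SREBP2 acts on promoters together with the factor NF-Y, which binds CCAAT, so upstream sequence is printed for FDPS and IDI1, members of the list that lay above all others. Sequences are from RefSeq on GRCh38.p14 and hold only bases before the RefSeq start, although the annotation behind the counts begins FDPS, IDI1 and PLSCR1 further upstream. Each CCAAT or its reverse complement ATTGG, searched on both strands, is in capitals. FDPS is chr1:155308630-155308865, plus strand, and IDI1 is chr10:1048909-1049078, minus strand, each printed 5′ to 3′ in the direction of the gene.
FDPS: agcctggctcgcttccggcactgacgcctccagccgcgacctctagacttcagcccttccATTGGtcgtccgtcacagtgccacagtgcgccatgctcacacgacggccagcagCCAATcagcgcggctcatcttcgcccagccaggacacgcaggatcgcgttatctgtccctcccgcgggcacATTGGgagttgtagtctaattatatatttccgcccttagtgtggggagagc
IDI1: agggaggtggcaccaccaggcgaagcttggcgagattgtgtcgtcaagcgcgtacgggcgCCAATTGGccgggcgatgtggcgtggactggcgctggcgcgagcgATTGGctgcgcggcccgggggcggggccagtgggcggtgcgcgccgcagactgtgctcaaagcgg
For each gene the RefSeq start with the most matches was printed, cut to the stretch around them. Each holds 3 matches, which is thus the highest number for its gene. In IDI1 a CCAAT and an ATTGG overlap by 2 bases. A gene was counted if any of its RefSeq starts had CCAAT, on either strand, in the 250 bases before it. By that count CCAAT occurred in 16 of the 18 cholesterol genes with promoter sequence (88.9%). It occurred in 21 of 49 interferon-stimulated genes (42.9%) and in 10102 of all 27305 genes with promoter sequence (37.0%). A match is a string of letters and not a measured binding site.

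Immediate-early genes were mostly lower in T2. Of 39 measured members, 0 passed, 3 had a positive fold change and the median was -0.14, with -0.08 in replicate 1 and -0.22 in replicate 2. Summed levels were 3860 CPM in T2 replicate 1, against 3870 to 4127 CPM, and 4246 CPM in T2 replicate 2, against 4614 to 5464 CPM. T2 was the lowest library of each replicate, by a narrow margin in replicate 1. FOSB, FOS, JUN, MAFK, MAFF, IER2 and ARC, 7 of 39 (17.9%), were below all 6 others in both replicates, and BTG2 was above. The share below was 3.75% over all genes and 4.53% over genes with at least 10 CPM.

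FOSB, a partner of JUN in the AP-1 factor (ENSG00000125740, chromosome 19, 45467995 to 45475179), had 7.79 CPM in T2 replicate 1, against 8.18, 10.5 and 13.1 CPM in the 6 others. In replicate 2 it had 5.88 CPM in T2, against 9.00, 10.9 and 12.6 CPM. T2 was lowest in both, and the log2 fold change of -0.65 ± 0.15 did not pass (edgeR adjusted p = 0.131). FOS, the founding AP-1 partner, had 10.3 CPM in T2 replicate 1, against 11, 13.9 and 17.5 CPM. Its replicate 2 value was 6.40 CPM in T2, against 8.81, 10.5 and 12.01 CPM. The difference was -0.56 ± 0.14 (edgeR adjusted p = 0.146). JUN itself had 604 and 639 CPM in T2, against 630 to 696 CPM and 713 to 857 CPM, a difference of -0.19 ± 0.05 (edgeR adjusted p = 0.170). EGR1, an early zinc finger factor, did not separate in both: it had 95.5 CPM in T2 replicate 1, inside the 88.2 to 105 CPM of the others, and 92.5 CPM in replicate 2, below their 105 to 145 CPM. DUSP1 and ATF3 showed the same arrangement, inside the others in replicate 1 and below them in replicate 2, with differences of -0.14 and -0.11.

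The small MAF proteins bind DNA as partners of CNC and BACH factors. MAFF and MAFK were among the genes called against a single other group. Against T1, edgeR called MAFF, MAFK and AKAP17A lower in T2 and 0 genes higher, with 1632 genes below an unadjusted p of 0.05. MAFF (chromosome 22, 38200767 to 38216507) had 21.5 and 23.3 CPM in the T2 libraries, against 31.6 and 44.4 CPM in the T1 libraries, a log2 fold change of -0.74 ± 0.12 (edgeR quasi-likelihood, Benjamini-Hochberg adjusted p = 0.0417). MAFK (chromosome 7, 1530702 to 1543043) had 131 and 184 CPM in T2, against 153 and 247 CPM in T1, a difference of -0.33 ± 0.06 (edgeR adjusted p = 0.0456). AKAP17A, a splicing-associated anchor of protein kinase A, had 178 and 193 CPM in T2, against 202 and 283 CPM in T1, and fell by 0.37 ± 0.07 (edgeR adjusted p = 0.0417). AKAP17A lies in the pseudoautosomal region, whose genes are annotated in 2 copies, so its count is uncertain. T1 replicate 2 held the highest level of all 3 genes among the 12 other libraries. DESeq2 called MAFF and AKAP17A but not MAFK, and without the block edgeR called 0 genes.

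Against the 5 remaining groups edgeR with the block called 0 genes other than LINC01016 itself, which was higher in T2 than in the empty vector. An unadjusted p under 0.05 was reached by 1593 genes against the empty vector, 658 against CU1, 1221 against CU2, 1509 against CU1ENC and 1045 against CU1ENU. Evenly spread p-values would give 955, and the count against CU1 was below that. DESeq2 called 1 gene, BCYRN1, lower in T2 than in CU1ENC. BCYRN1 had 4.33 and 8.82 CPM in T2, against 82.3 and 152 CPM in CU1ENC, and 4.53 to 13.95 CPM in the 10 other libraries, so CU1ENC is the group that stands apart for it. The comparisons share the T2 libraries. The median of the cholesterol list was positive in all 6, from 0.09 to 0.13, and that of the immediate-early list negative in all 6, from -0.24 to -0.09.

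NF-kB and inflammatory genes were lower in T2 by list median, but not by summed level. Of 22 tested members, 0 passed and 8 were positive, and the median was -0.12, with -0.10 in replicate 1 and -0.15 in replicate 2. The sum was 482 CPM in T2 replicate 1, inside 472 to 513 CPM, and 465 CPM in replicate 2, inside 459 to 512 CPM. TNFAIP3, NFKB1, RELB, NFKBIE, BIRC3 and CXCL3, 6 of 22 (27.3%), were below all others in both replicates and 0 above. The share below was 3.75% over all genes and 4.53% over genes with at least 10 CPM. NFKB1, which encodes the p105 precursor of the p50 subunit, had 41.8 and 41.1 CPM in T2, against 41.9 to 46.9 CPM and 41.6 to 53.4 CPM. TNFAIP3, the deubiquitinase that restrains NF-kB, had 22.0 and 18.4 CPM in T2, against 22.3 to 26.8 CPM and 19.6 to 25.6 CPM. The margins were thus narrow in each. CXCL3, a neutrophil chemokine, was at 0.43 and 0.20 CPM in T2, so its log2 fold change of -1.24 ± 0.53 rests on few reads.

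Genes of nuclear speckles and of introns retained in the nucleus were also lower. Of 23 members, 0 passed, 4 were positive and the median was -0.10, with -0.10 in replicate 1 and -0.07 in replicate 2. NKTR, OGT, ARGLU1, RSRC2 and CCNL1, 5 of 23 (21.7%), were below all others in both replicates. The share below was 3.75% over all genes and 4.53% over genes with at least 10 CPM. The sum was 4788 CPM in T2 replicate 1, below the 5046 to 5503 CPM of the others, and 4556 CPM in T2 replicate 2, inside their 4504 to 4995 CPM. NKTR, a large cyclophilin-related protein, had 91.6 CPM in T2 replicate 1, against 100.01, 101.4 and 116 CPM, and 76.8 CPM in T2 replicate 2, against 82.5, 85.9 and 92.9 CPM. Its difference was -0.17 ± 0.05 (edgeR adjusted p = 0.202). OGT, the O-GlcNAc transferase, had 187 and 144 CPM in T2, against 203 to 224 CPM and 145 to 161 CPM. SRRM2, a scaffold of speckles, was lowest in replicate 1, at 716 CPM in T2 against 783 to 919 CPM, but not in replicate 2, at 675.1 CPM in T2 against 674.8 to 803 CPM.

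DNA replication and G1/S genes were higher in T2 by a small amount in both replicates. Of 38 members, 0 passed, 26 were positive and the median was 0.04, with 0.07 in replicate 1 and 0.04 in replicate 2. T2 had the highest sum in each replicate, with 6322 CPM against 6006 to 6261 CPM and 6589 CPM against 6353 to 6498 CPM. Above all others in both replicates were 9 of 38 (23.7%), beside 3.60% of all genes and 4.98% of genes with at least 10 CPM. TYMS, GINS2, RFC2, PCNA and TK1 were among them, and POLA1 was below. TYMS, thymidylate synthase, had 338 CPM in T2 replicate 1, against 288, 302 and 309 CPM, and 329 CPM in T2 replicate 2, against 286, 298 and 309 CPM. That gave 0.15 ± 0.04 (edgeR adjusted p = 0.146). PCNA, the sliding clamp of DNA polymerase, had 382 and 370 CPM in T2, against 318 to 370 CPM and 335 to 362 CPM. Mitotic genes were higher than all others in replicate 1 alone, with a list median of 0.07 there and -0.01 in replicate 2. Replication-dependent histones, whose messages lack a poly(A) tail, had a negative median in both (-0.12 and -0.13), with 8 of 33 positive. Their sum was 268 CPM in T2 replicate 1, below the 278 to 298 CPM of the others, and 286 CPM in T2 replicate 2, inside their 268 to 298 CPM and above their median of 281 CPM.

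All 13 mitochondrially encoded protein genes had a negative fold change, with a median of -0.19, and -0.20 and -0.19 within replicates 1 and 2. Their sum was 13560 CPM in T2 replicate 1, below the 13850 to 18520 CPM of the others. In replicate 2 it was 11080 CPM in T2, inside 10800 to 14680 CPM, where the empty vector was lower. MT-ND4L and MT-ND2, subunits of complex I, were the members below all others in both replicates. They are 15.4% of the list, beside 3.75% of all genes and 4.53% of genes with at least 10 CPM. MT-ND4L had 293 and 242 CPM in T2, against 307 to 408 CPM and 263 to 353 CPM, a difference of -0.27 ± 0.11 (edgeR adjusted p = 0.441). Nuclear genes of the same complexes leaned the other way, as given next.

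**Figure D3:**
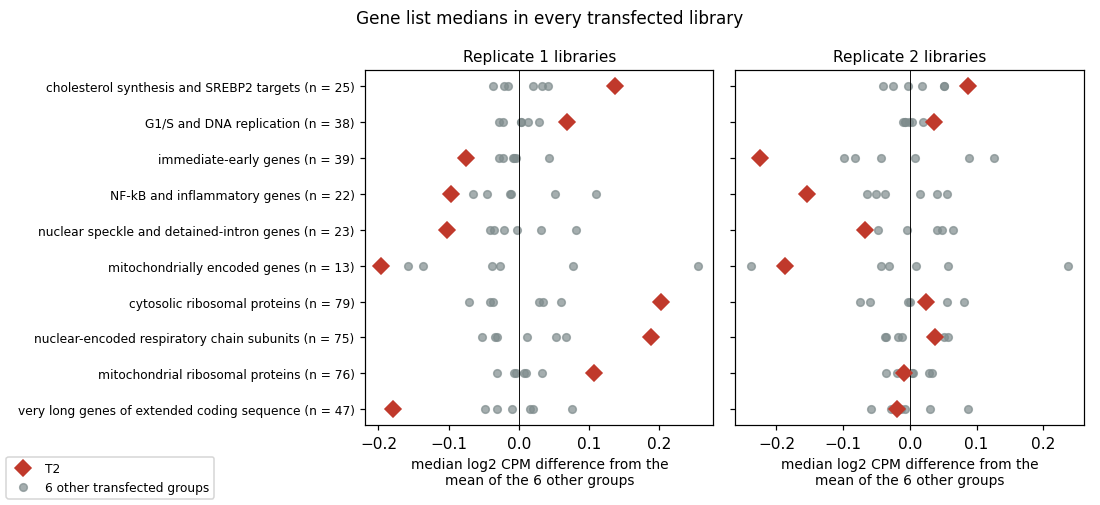
Median over each of 10 gene lists (rows, with the number of genes tested) of log2 CPM minus the mean of the 6 other groups of the same replicate number, for replicate 1 (left) and replicate 2 (right). Red diamonds are T2 and grey points the 6 other transfected groups. In the upper 5 lists T2 is at or near the edge in both panels, from 0.14 down to -0.22, and in the lower 4 it is at the edge in replicate 1 but inside the others in replicate 2.

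For several housekeeping lists the difference rested on T2 replicate 1. Cytosolic ribosomal proteins, the protein part of the ribosome, had 77 of 79 positive and a median of 0.12, but the median was 0.20 in replicate 1 and 0.02 in replicate 2. Their sum was 67460 CPM in T2 replicate 1, far above the 56570 to 61320 CPM of the others, and 61290 CPM in T2 replicate 2, inside 56840 to 62860 CPM. Nuclear-encoded respiratory chain subunits had 71 of 75 positive, with medians of 0.19 and 0.04 in replicates 1 and 2. Mitochondrial ribosomal proteins had 60 of 76 positive, with medians of 0.11 and -0.0083. Proteasome subunits had 24 of 31 positive, with medians of 0.11 and -0.0060. Without T2 replicate 1 the medians of the fit were 0.03 for cytosolic ribosomal proteins, 0.04 for respiratory chain subunits and -0.0056 for mitochondrial ribosomal proteins. A minority of members still lay above all others in both replicates: 8 of 79 cytosolic ribosomal proteins, 13 of 75 respiratory chain subunits, 9 of 76 mitochondrial ribosomal proteins and 7 of 31 proteasome subunits, and 0 of these lay below. These are 10.1%, 17.3%, 11.8% and 22.6% of the lists, beside 3.60% of all genes and 4.98% of genes with at least 10 CPM. Shares by exonic length, which are higher for short genes, are given below. Among them was RPS3A, of the small ribosomal subunit, with 1237 CPM in T2 replicate 1 against 975 to 1077 CPM, and 1038 CPM in T2 replicate 2 against 889 to 1030 CPM. NDUFS5, of complex I, had 141 and 132 CPM in T2, against 108 to 124 CPM and 113 to 130 CPM. PSMB3, a proteasome core subunit, had 170 and 171 CPM in T2, against 136 to 161 CPM and 145 to 165 CPM.

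Genes of very long coding sequence ran the other way and again mainly in replicate 1. Of 47 tested, 9 were positive and the medians were -0.18 in replicate 1 and -0.02 in replicate 2, and 6 lay below all others in both (12.8%, beside 3.75% of all genes and 4.53% of genes with at least 10 CPM). MACF1, a giant linker of microtubules and actin, had 171 CPM in T2 replicate 1, far below the 199 to 222 CPM of the others, and 155 CPM in T2 replicate 2, just below their 156 to 166 CPM. Both lists were then set beside exonic length. Over 10 equal bins of the genes with at least 10 CPM, the median difference went down with length in T2 replicate 1, with 0.09 in the shortest bin (median 1741 exonic bases) and -0.05 in the longest (median 14011 bases). In T2 replicate 2 the same bins gave 0.02 and -0.01. In the longest bin 9.55% of genes lay below all others in both replicates, nearer the 12.8% of the very long list. In the shortest bin 10.0% lay above all others in both, and in the next (2290 to 3178 bases) 8.43%. The 10.1% of cytosolic ribosomal proteins (median 2930 bases) and 11.8% of mitochondrial ribosomal proteins (2572 bases) are near these shares. Respiratory chain subunits had 17.3% at a median of 2324 bases. Proteasome subunits had 22.6% at 4279 bases, where the bin had 4.36%. In a fit with offsets for exonic length, the medians were 0.08 for cytosolic ribosomal proteins, 0.02 for mitochondrial ribosomal proteins, 0.10 for cholesterol genes and -0.17 for immediate-early genes.

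**Figure D4:**
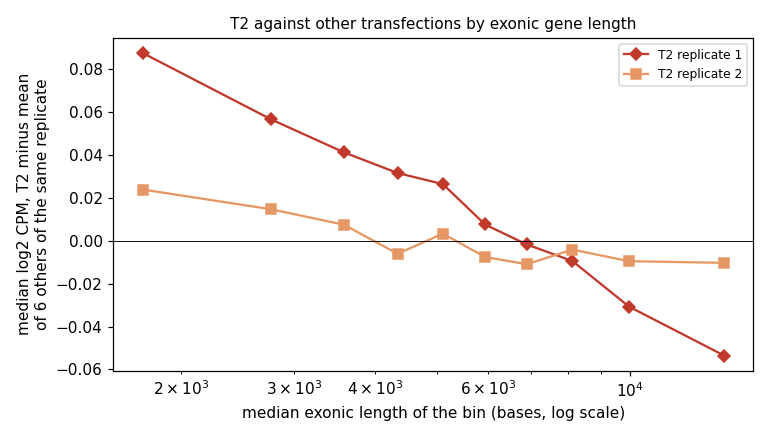
Median difference in log2 CPM between T2 and the mean of the 6 other groups of the same replicate number (vertical axis) in 10 bins of genes by exonic length (horizontal axis, log scale), for T2 replicate 1 and T2 replicate 2. The replicate 1 line spans 0.09 to -0.05 and the replicate 2 line 0.02 to -0.01.

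By class of gene, from GENCODE annotation matched on the gene identifier, the median fold change was 0.0038 over 14420 protein-coding genes and -0.09 over 3366 long non-coding RNA genes, of which 37.5% were positive. Within replicates 1 and 2 the long non-coding median was -0.07 and -0.03. Unprocessed pseudogenes, counted uncertainly because they resemble their parents, had a median of -0.12, with 127 of 390 positive. These are classes of low level, with a median of 1.51 CPM for long non-coding RNA genes against 32.3 CPM for protein-coding genes, both over the other libraries. T2 also had the fewest detected genes, and the part of that in these medians was not tested.

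In the remaining lists 0 members passed as well. Small nucleolar RNA host genes had 11 of 21 positive, with medians of 0.11 and -0.08 in replicates 1 and 2. Metallothioneins and zinc export genes had 1 of 4 positive, with medians of -0.04 and -0.02. Stress lists were split: 14 of 42 genes of the integrated stress response, 13 of 30 of the unfolded protein response and 23 of 30 heat shock and chaperone genes had positive fold changes. In that order, list medians were -0.01, 0.06 and 0.10 in replicate 1 and -0.06, -0.06 and -0.01 in replicate 2. SESN2, a stress-induced regulator of growth signalling, had 58.2 and 57.7 CPM in T2, against 61.5 to 74.0 CPM and 59.7 to 73.4 CPM, a difference of -0.20 ± 0.06 (edgeR adjusted p = 0.223). Among p53 targets 17 of 27 were positive, but the list median was -0.03 in replicate 1 and 0.10 in replicate 2. CCNG1, TRIAP1 and BTG2 were above all others in both replicates while SESN2 was below. Those above are 11.1% of the list, beside 3.60% of all genes and 4.98% of genes with at least 10 CPM. CCNG1, cyclin G1, had 288 CPM in T2 replicate 1, against 230, 247 and 259 CPM, and 252 CPM in T2 replicate 2, against 195, 223 and 240 CPM. Its log2 fold change was 0.21 ± 0.05 (edgeR adjusted p = 0.170). Positive fold changes were found for 26 of 36 translation factors, 23 of 33 SR proteins, hnRNPs and CLK kinases and 20 of 31 hypoxia and glycolysis genes. They were found for 15 of 40 ribosome biogenesis genes and 4 of 12 nuclear long non-coding RNAs, beside 53.1% of genes with at least 10 CPM. In the order given, replicate 1 medians were 0.10, 0.05, 0.04, 0.04 and -0.05. Replicate 2 medians were 0.0013, -0.0089, 0.0083, -0.06 and -0.01.

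Interferon-stimulated genes, the antiviral genes switched on by interferon, were high in T2 replicate 2 and inside the other libraries in T2 replicate 1. The list median was -0.10 in replicate 1 and 1.09 in replicate 2, and 0 of 62 members lay beyond all others in both replicates. Summed levels were 7781 CPM in T2 replicate 1, inside 5670 to 10420 CPM, and 5253 CPM in T2 replicate 2, near the top of 2153 to 5513 CPM. The 1 higher library of replicate 2 was CU2, and the remaining 5 lay at 2153 to 3343 CPM. IFIT1, which binds foreign 5′ ends of RNA, had 394 CPM in T2 replicate 1, against 211, 431 and 620 CPM. In replicate 2 it had 226 CPM in T2, against 23.2, 47.0 and 229 CPM. ISG15, a ubiquitin-like modifier, had 252 and 149 CPM in T2, against 180 to 376 CPM and 39.3 to 166 CPM. Fitted over both replicates, 55 of 62 members were positive with a median of 0.33, yet 0 had an unadjusted p under 0.05, and without T2 replicate 2 the median was -0.16. The same pair of libraries stood apart on a principal component analysis after removal of replicate means: on the second axis (15.8% of variance) T2 replicate 2 was at 13.3 and CU2 replicate 2 at 14.3, while the 12 other libraries lay between -10.5 and 5.68. Against CU2 the list median was negative (-0.26), and against the 5 other groups it was positive (0.38 to 0.63).

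Upstream sequence of IFIT5 and PLSCR1, the 2 members of lowest p among those with a positive fold change, shows the interferon-stimulated response element that the factor ISGF3 binds, searched on both strands as GAAA, any 2 bases and GAAA again, with matches in capitals. IFIT5 is chr10:89414463-89414567, plus strand, and PLSCR1 is chr3:146544617-146544746, minus strand, both RefSeq on GRCh38.p14 and 5′ to 3′ along the gene.
IFIT5: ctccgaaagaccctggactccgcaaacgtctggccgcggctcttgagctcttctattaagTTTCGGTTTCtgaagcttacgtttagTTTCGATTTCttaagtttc
PLSCR1: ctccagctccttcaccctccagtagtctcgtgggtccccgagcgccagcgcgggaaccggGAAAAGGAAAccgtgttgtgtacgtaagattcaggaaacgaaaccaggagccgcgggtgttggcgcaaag
IFIT5 holds 2 matches and PLSCR1 holds 1, again at the RefSeq start with the most matches for each gene. Counted by gene as for CCAAT, in the 250 bases before any RefSeq start, the element occurred in 28 of 49 interferon-stimulated genes (57.1%). It occurred in 0 of 18 cholesterol genes and in 1014 of all 27305 genes with promoter sequence (3.71%). IFIT5 had 158 and 124 CPM in T2, against 106 to 180 CPM and 35.6 to 112 CPM in the others. PLSCR1 had 144 and 94.0 CPM in T2, against 99.2 to 159 CPM and 33.7 to 87.2 CPM. Both T2 replicate 2 values were the highest of their replicate, and both T2 replicate 1 values lay inside the others.

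The direction of the T2 differences was set beside the difference between empty vector and parental cells. T2 minus the mean of the 5 other transcripts and empty vector minus parental cells share no library, though they share replicate numbers. Over 10788 genes the 2 differences had a Spearman correlation of -0.38 and a Pearson correlation of -0.23, given as a description since genes are not independent. In the tenth of genes lowest in the empty vector relative to parental cells (median -0.53), the T2 median was 0.07. In the tenth highest there (median 0.64), it was -0.07, and T2 was lower than the other transcripts for 78.1% of those genes. The same values are not given for each other transcript or for each T2 replicate. Whether the relation is particular to T2, or holds in both T2 replicates, was therefore not tested. By list, immediate-early genes had a median of -0.14 in T2 and 1.09 in the empty vector, and cholesterol genes 0.10 in T2 and -0.26 in the empty vector. Cytosolic ribosomal proteins had 0.12 in T2 and -0.15 in the empty vector. Of the 31 lists, 17 had medians of opposite sign in the 2 differences and 14 had medians of the same sign. Among those of the same sign were interferon-stimulated genes, with 0.49 in T2 and 1.37 in the empty vector. Heat shock and chaperone genes had 0.03 in T2 and 0.26 in the empty vector, and mitochondrial ribosomal proteins 0.07 in T2 and 0.06 in the empty vector. Very long genes had -0.09 in T2 and -0.25 in the empty vector, and nuclear long non-coding RNAs -0.04 in T2 and -0.34 in the empty vector.

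**Figure D5:**
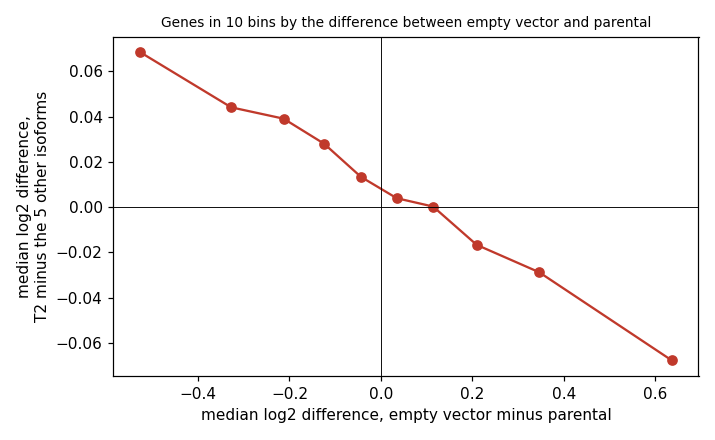
Genes with at least 10 CPM in 10 bins by their log2 difference between empty vector and parental cells (horizontal axis, bin median), against the median log2 difference between T2 and the mean of the 5 other transcripts (vertical axis). The T2 median is 0.07 in the lowest bin and -0.07 in the highest, and no library enters both axes.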

How the data were processed

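Read counts per gene, as whole numbers without normalization, were deposited by the authors. Per the file headers, featureCounts 2.0.1 counted read pairs over the exons of Ensembl release 101, using strand option 2. The submitters' processing notes name HISAT2, DESeq2 and GRCh38.p13, and how reads were aligned is not given. Of 60671 genes, filterByExpr (minimum count 10, minimum total 15) kept 19103. These were TMM-scaled (factors 0.976 to 1.02) and tested with edgeR 4.0.16 in R 4.3.3. The model was a robust quasi-likelihood fit of T2 against the 12 others with the replicate number as a block (11 residual degrees of freedom). It was first run on simulated counts. Those held no replicate effect and no differences among the other plasmids, so they could not check how the fit handles either. The SE is the absolute log2 fold change over the square root of F, so 95% intervals are approximate. Single groups were compared with T2 in a blocked model of 7 group means. DESeq2 1.42.0 and limma 3.58.1 served as alternatives. The replicate numbers pair the libraries: deviations from group means correlated in each of 21 pairs of groups (r between 0.406 and 0.714). That pairing is seen in the data, since the labels explain neither the numbers nor whether cultures were separate, and p-values may therefore reflect technical spread only. Replicates differed by more than counting noise, with a chi-square per degree of freedom of 6.21 in T2 and 10.3 to 17.0 in the 6 other groups. CPM are TMM-scaled, except those of LINC01016, which use deposited totals. The comparison and the 31 gene lists were chosen with earlier results of these data known. Named genes had the lowest p in a direction and lay beyond all others in both replicates, or were up to 4 members per list of lowest p in the direction of the list's median. Other list members named, the gene classes and the detected-gene counts were added after their values were seen.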

Additional observations from a re-analysis of the deposited data

How the results depend on the processing

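With 2 T2 libraries, an effect carried by 1 of them cannot be told from a library difference, and depth limits low genes: the interval lay within 1.5-fold for 98.8% of genes at 10 CPM or more but 68.3% of all. The counts of called genes were 0 in each direction without the block, under limma-voom, library totals, DESeq2 size factors and length offsets. Without the low-count filter 34 were higher and 47 lower, and DESeq2 with the replicate block called 13 and 16. Leaving out 1 library gave 0 higher and 0 to 2 lower (1 without T2 replicate 2, 2 without empty vector replicate 2, 1 without CU2 replicate 1). Leaving out the empty vector gave 2 lower (MTND2P28 and SAMD4A), and leaving out CU2 gave 1 (SAMD4A). Genes with an unadjusted p under 0.05 numbered 830 without the replicate block, 3165 without the filter and 1352 to 2179 with 1 library left out. Without the block, 0 genes were lower in T2 than in T1. DESeq2 called 1 lower than in CU1ENC. Medians of lists with 1 library left out ranged as follows. The cholesterol median ranged from 0.087 to 0.13, immediate-early from -0.22 to -0.079, and G1/S from 0.037 to 0.067. The NF-kB median ranged from -0.24 to -0.092, cytosolic ribosomal proteins from 0.028 to 0.20, and respiratory chain subunits from 0.037 to 0.18. Mitochondrial ribosomal proteins ranged from -0.0056 to 0.10, very long genes from -0.18 to -0.017, and interferon-stimulated genes from -0.16 to 0.94. In replicate 1 alone the medians were 0.14 for cholesterol genes, -0.075 for immediate-early, 0.069 for G1/S, 0.20 for cytosolic ribosomal proteins, 0.19 for respiratory chain and -0.18 for very long genes. In replicate 2 alone they were -0.22 for immediate-early, -0.15 for NF-kB, 0.023 for cytosolic ribosomal proteins, 0.038 for respiratory chain, -0.0083 for mitochondrial ribosomal proteins, -0.020 for very long and 1.09 for interferon-stimulated genes. With length offsets and the replicate block, medians were 0.030 for G1/S, -0.16 for NF-kB and 0.023 for mitochondrial ribosomal proteins. Apart from interferon-stimulated and mitochondrial ribosomal protein genes (same sign in 32 of 34 alternatives each), the 9 other list medians kept their sign in all 34. The cause of these shifts was not tested.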
